A study of Mus musculus with 12 samples.

Results

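Egr1, Egr2, Egr3, Nr4a1, Nr4a2 and Nr4a3 are response genes of the antigen receptor in T cells. They were picked by symbol, as 6 of the 24421 symbols in a table of read counts, and all 6 passed the filter on low counts that left 12461 genes for testing. The counts come from bulk RNA sequencing of sorted mouse regulatory T cells (Tregs) with and without CD25, the high-affinity subunit of the receptor for interleukin-2, encoded by Il2ra. The 4 groups were CD25KO effector Tregs (KO eTreg), CD25WT effector Tregs (WT eTreg), CD25KO central Tregs (KO cTreg) and CD25WT central Tregs (WT cTreg), with 3 libraries each. Effector and central cells were separated in the sort by a surface gate, and KO cells also had to be CD25lo. Mice of every group received tamoxifen at 2 mg/kg into the peritoneum over 5 days, and cells were collected 10 days after induction. The alleles R26tomato+/+ and Foxp3eGFPERT2+/+ are named for all 12 libraries, so KO and WT cells share the reporters and the inducible Foxp3 allele as well as the drug. At the CD25 locus the genotype field gives CD25WT/WT for the libraries titled KO and CD25FL/FL for those titled WT, which is the reverse of the titles and the cell type field. Groups follow the titles. The inducible allele sits at Foxp3, so deletion is limited to cells that express Foxp3, the lineage factor of Tregs. Cells were sorted by viability, CD4, GFP and tdTomato, and each library pooled spleen and lymph nodes of 2 to 3 mice.

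The EGR proteins are zinc finger transcription factors that antigen receptor signals induce quickly through the MAP kinase pathway and serum response factor. In mouse T cells EGR2 and EGR3 are known for restraining activation, and the NAB proteins act as their corepressors. The NR4A proteins are orphan nuclear receptors induced early by the same receptor, in T cells through calcium signals and MEF2 factors, and in many cells through cyclic AMP and CREB. Nr4a1 encodes Nur77, whose promoter drives reporters of antigen receptor signalling in mice, and the family is known there for the development and upkeep of Tregs. Tregs meet self antigen continually, so these genes are commonly read as a trace of recent receptor signals.

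Promoter sequences are shown for 3 members that differed between the gates (Egr2, Nr4a2 and Nr4a3) and for Nr4a1, which was called between no groups in the fit over all libraries, so that the elements known to answer receptor signals can be read beside the values. The RefSeq promoter table, on build GRCm38.p6, held 4 of the 6 members, without Egr1 and Egr3. Each line gives bases upstream of the start site, 5′ to 3′ on the strand of the gene. Egr2 has 5 RefSeq starts, of which the one nearest a principal GENCODE transcript start was used. The Egr2 and Nr4a1 stretches lie inside the annotated gene bodies, since other transcripts start farther upstream. Capitals mark TGACG, the core of the cyclic AMP response element, or CGTCA on the other strand; the CArG box bound by serum response factor in Egr2; and GCGNGGGCG, the EGR binding motif, on either strand in Nr4a1 and Nr4a2. The stretches are chr10:67537619-67537868 on the plus strand for Egr2, chr15:101266596-101266845 on the plus strand for Nr4a1 and chr2:57124004-57124253 on the minus strand for Nr4a2. For Nr4a3 the stretch chr4:48045055-48045152 on the plus strand ends where GENCODE vM21 starts an exon, 152 bases ahead of the RefSeq start.
Egr2: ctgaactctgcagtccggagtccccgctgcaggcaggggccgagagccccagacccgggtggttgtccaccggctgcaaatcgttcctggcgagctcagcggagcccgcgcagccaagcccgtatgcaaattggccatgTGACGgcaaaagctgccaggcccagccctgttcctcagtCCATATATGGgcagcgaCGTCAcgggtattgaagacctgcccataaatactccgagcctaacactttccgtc
Nr4a1: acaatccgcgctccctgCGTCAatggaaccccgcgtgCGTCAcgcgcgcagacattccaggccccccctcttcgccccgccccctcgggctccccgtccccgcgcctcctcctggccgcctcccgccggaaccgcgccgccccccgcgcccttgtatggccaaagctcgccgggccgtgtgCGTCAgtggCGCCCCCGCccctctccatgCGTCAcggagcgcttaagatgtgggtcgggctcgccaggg
Nr4a2: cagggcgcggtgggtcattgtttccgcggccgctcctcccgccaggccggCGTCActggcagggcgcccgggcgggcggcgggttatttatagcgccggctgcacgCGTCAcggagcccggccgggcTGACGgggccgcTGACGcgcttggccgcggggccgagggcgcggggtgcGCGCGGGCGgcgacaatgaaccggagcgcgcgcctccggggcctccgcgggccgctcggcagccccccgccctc
Nr4a3: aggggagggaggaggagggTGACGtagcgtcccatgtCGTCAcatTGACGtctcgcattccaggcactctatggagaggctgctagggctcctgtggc

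TGACG was found on either strand in all 4 promoters, with 14 matches in the 250 bases upstream of the start, of which 1 in Nr4a3 lies past the printed stretch. In the promoters of 27025 genes 17.9% held it over the same length. The full palindrome TGACGTCA was in 0 of the 4 promoters, against 1.62% of all. The CArG box was in 1, Egr2, against 1.4% of all promoters, and GCGNGGGCG was in 2, Nr4a1 and Nr4a2, against 4.65%. No printed match overlaps another. These are letters in a window and not measured sites. In mm10 with GENCODE vM21 the gene bodies are Egr1 on chromosome 18 from 34859823 to 34864984, Egr2 on chromosome 10 from 67535475 to 67542188, Egr3 on chromosome 14 from 70077203 to 70082614, Nr4a1 on chromosome 15 from 101254269 to 101274795, Nr4a2 on chromosome 2 from 57106830 to 57124003, and Nr4a3 on chromosome 4 from 48045153 to 48086447. Counts were given per gene symbol, and no member's gene body overlaps another annotated gene.

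Total counts were 14567313 to 19121577 per library. Il2ra stood at 112 to 132 CPM in the 6 KO libraries and at 464 to 579.8 CPM in the 6 WT libraries, a level that the CD25lo gate itself can set. CPM are counts scaled to each library's size, with TMM factors that even out library composition. All 8 Treg markers were detected, including Foxp3 and Ctla4, and their summed level was 4872 to 5090.2 CPM in KO eTreg, 4961 to 5178 CPM in WT eTreg, 3144 to 3257 CPM in KO cTreg and 3299 to 3348 CPM in WT cTreg. The sum includes Il2ra, and its largest part in eTreg was Ikzf2, at means of 2180 CPM in KO and 1875 CPM in WT. Foxp3 ran the other way between the gates, at means of 176 and 244 CPM in KO and WT eTreg against 227 and 393 CPM in KO and WT cTreg. The 5 effector markers, Icos and Klrg1 among them, summed to 1159 to 1412 CPM in KO eTreg, 944 to 1049.7 CPM in WT eTreg, 620.3 to 666 CPM in KO cTreg and 186 to 266 CPM in WT cTreg. Icos was the largest part in eTreg, at means of 601 CPM in KO and 457 CPM in WT. Klrg1 went the other way there, at 27.4 CPM in KO eTreg and 42.5 CPM in WT eTreg, while the remaining markers followed the sum. Among markers of other cells the 5 dendritic genes differed most by gate, with 5.88 to 6.87 CPM in KO eTreg, 4.43 to 5.77 CPM in WT eTreg, 0.671 to 1.71 CPM in KO cTreg and 0.433 to 0.642 CPM in WT cTreg, led by Zbtb46. The 5 B cell genes found of 6 listed summed to 9.29 to 11.2 CPM in KO eTreg, 14.8 to 15.3 CPM in WT eTreg, 7.63 to 9.63 CPM in KO cTreg and 11.4 to 12.8 CPM in WT cTreg, with Ms4a1 at 0 in both cTreg groups. The 3 natural killer genes summed to 1.96 to 15.6 CPM in KO eTreg, 1.27 to 3.83 CPM in WT eTreg, 13.3 to 16.5 CPM in KO cTreg and 3.23 to 4.81 CPM in WT cTreg, with Eomes, which T cells also express, leading in KO cTreg and Klrb1c in KO eTreg replicate 2, the 15.6 CPM library, while Ncr1 was at 0 outside KO eTreg. The part of these markers in the results was not tested. Rn45s, a ribosomal RNA precursor, took 3.19% to 4.34% of counts in eTreg libraries and 18.1% to 24.4% in cTreg libraries.

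Egr1, the broadly inducible founder of its family, was the member with the most counts. It stood at 127, 151 and 136 CPM in KO eTreg replicates 1, 2 and 3, against 120.5, 137 and 111 CPM in WT eTreg. In the central gate it stood at 129, 117 and 134 CPM in KO cTreg, against 111, 84.9 and 109 CPM in WT cTreg. The 3 WT cTreg libraries lay below every KO library of either gate and, by less than 1 CPM, below the lowest WT eTreg library, while KO eTreg, KO cTreg and WT eTreg overlapped.

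Egr2, which restrains T cell activation, parted the gates with no overlap. It stood at 110.3, 113 and 104 CPM in KO eTreg and at 95.002, 108 and 92.5 CPM in WT eTreg. It stood at 49.1, 44.9 and 50.5 CPM in KO cTreg and at 28.4, 28.3 and 39.4 CPM in WT cTreg. Every eTreg library lay above every cTreg library, and within the central gate every KO library lay above every WT library, although WT cTreg replicate 3 came close. KO eTreg replicate 3 lay below WT eTreg replicate 2, so the genotypes overlapped in the effector gate.

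Egr3, a relative of Egr2 with overlapping function in mouse T cells, had a narrower range. Its levels were 57.0, 73.0 and 62.6 CPM in KO eTreg, against 74.5, 83.6 and 74.5 CPM in WT eTreg. They were 53.2, 41.9 and 54.9 CPM in KO cTreg, against 45.0, 38.1 and 42.2 CPM in WT cTreg. WT eTreg was the highest group and all 3 of its libraries exceeded the 3 KO eTreg libraries, while KO cTreg and WT cTreg overlapped, with KO cTreg replicate 2 low. The gates lay apart by a narrow margin, with KO eTreg replicate 1 at 57.0 CPM above KO cTreg replicate 3 at 54.9 CPM.

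Nr4a1, the Nur77 gene, had its higher group means in the central gate. It stood at 39.9, 59.7 and 44.8 CPM in KO eTreg, against 57.5, 77.1 and 53.1 CPM in WT eTreg. It stood at 75.0, 60.6 and 73.5 CPM in KO cTreg, against 94.4, 49.3 and 84.7 CPM in WT cTreg. WT cTreg held the 2 highest libraries and also, in replicate 2, one that lay below all of KO cTreg and WT eTreg. KO eTreg lay below KO cTreg with no overlap, and every other pair of groups overlapped.

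Nr4a2, or Nurr1, was the scarcest member, with 7 to 179 counts per library. It stood at 7.22, 8.66 and 7.15 CPM in KO eTreg, against 6.42, 7.61 and 10.1 CPM in WT eTreg. It stood at 1.56, 1.71 and 2.31 CPM in KO cTreg, against 1.76, 0.505 and 1.08 CPM in WT cTreg. All eTreg libraries lay far above all cTreg libraries, and the genotypes overlapped within each gate.

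Nr4a3, or Nor1, also parted the gates but not the genotypes. It stood at 57.8, 76.0 and 58.2 CPM in KO eTreg, against 67.2, 91.7 and 73.8 CPM in WT eTreg. It stood at 30.9, 21.0 and 32.2 CPM in KO cTreg, against 28.8, 22.7 and 32.4 CPM in WT cTreg. The 2 central groups covered nearly the same range, and replicate 2 was the highest library in both effector groups and the lowest in both central groups.

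**Figure D1:**
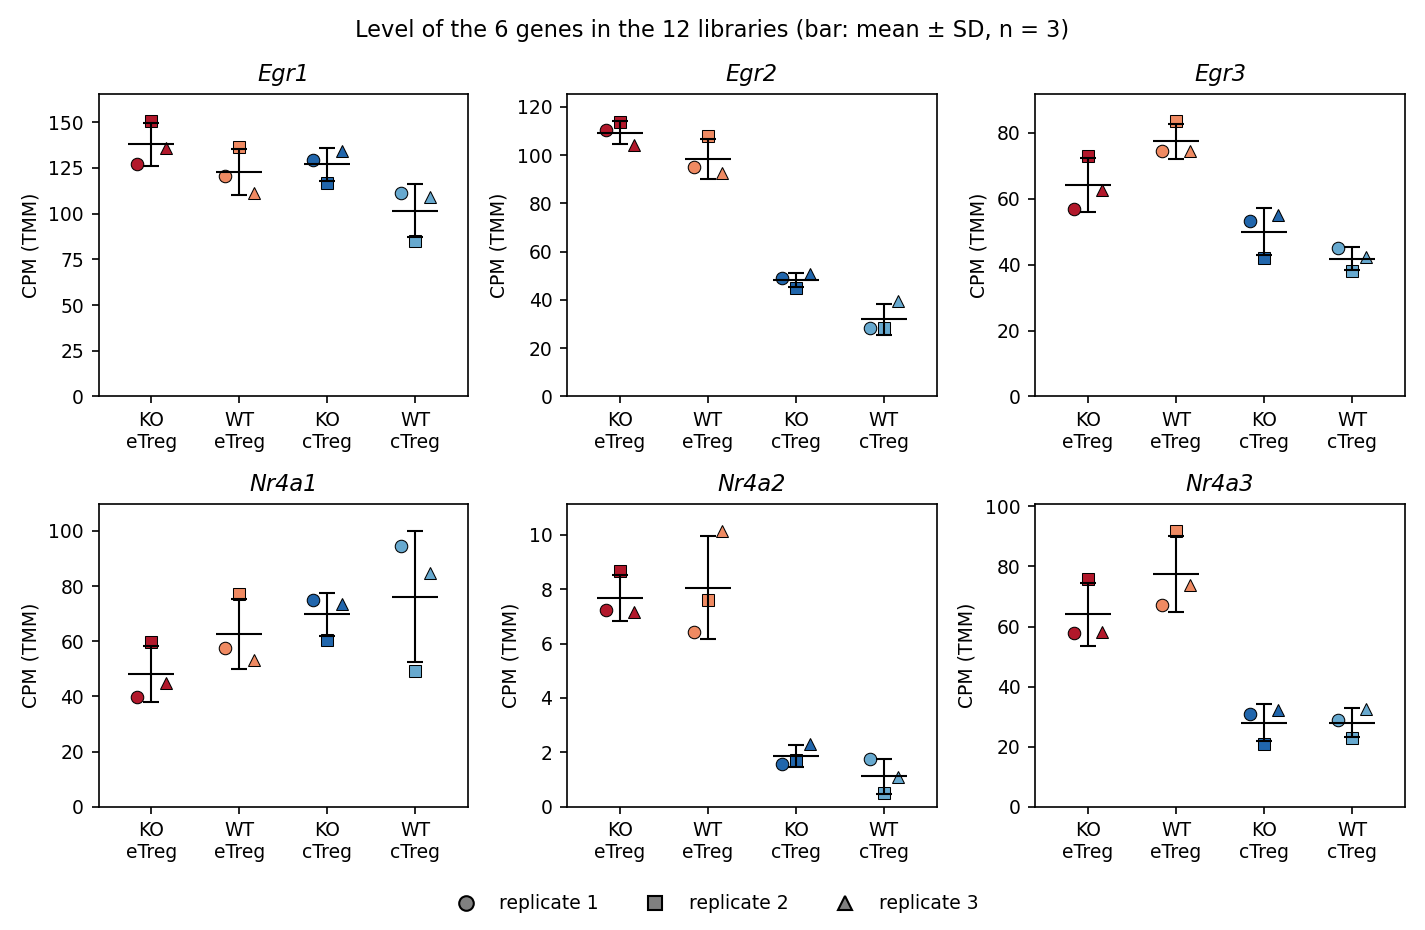
Level of each member in CPM (TMM-normalised, linear axes from 0) in the 12 libraries, with a point per library shaped by replicate number, and the group mean with its SD (n = 3 libraries) as a line with bars. Egr2, Nr4a2, Nr4a3 and, narrowly, Egr3 lie apart between the gates, as in 104 to 113 CPM of Egr2 in KO eTreg against 44.9 to 50.5 CPM in KO cTreg. By contrast, the lowest Nr4a1 library, at 39.9 CPM, lies in KO eTreg.

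Levels of different genes can be compared only per length, here as CPM per kilobase of merged GENCODE exons. On that scale Egr2 and Egr1 led in KO eTreg, at 32.1 ± 1.43 and 30.8 ± 2.64 CPM per kilobase (SD, n = 3). Egr1 and Nr4a1 led in WT cTreg, at 22.7 ± 3.25 and 21.7 ± 6.76 CPM per kilobase. Nr4a2 was lowest in each group, at 1.89 ± 0.211 CPM per kilobase in KO eTreg and 0.275 ± 0.155 in WT cTreg. The order of the members thus differed between the gates, with Egr2 above Nr4a1 in KO eTreg and below it in WT cTreg. The lengths come from an annotation that may not be the one used for counting.

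Effector cells carried more Nr4a2, Egr2, Nr4a3 and Egr3 RNA than central cells of the same genotype. Between the gates in WT cells, Nr4a2 was 7.29-fold higher in WT eTreg than in WT cTreg, Egr2 3.08-fold, Nr4a3 2.78-fold, Egr3 1.86-fold and Egr1 1.21-fold. These 5 members rose and 0 fell, where 35.7% of all tested genes were called higher, 35.8% lower and 71.5% in either direction by edgeR's quasi-likelihood test at an adjusted p under 0.05. As a share called in either direction, 5 in 6 is near that of all genes, while all 5 calls were in the higher direction. The libraries of 5 members did not overlap between WT eTreg and WT cTreg, against 74.9% of tested genes. The log2 fold change, WT eTreg over WT cTreg, was 2.87 ± 0.29 for Nr4a2 (SE, n = 3 per group; adjusted p 1.91e-07, edgeR), 1.62 ± 0.11 for Egr2 (1.47e-08), 1.48 ± 0.20 for Nr4a3 (0.000106) and 0.90 ± 0.11 for Egr3 (7.39e-06). Egr1 passed narrowly, at 0.27 ± 0.11 (adjusted p 0.0385, edgeR). Nr4a1 had a log2 fold change of -0.28 ± 0.26 (95% interval -0.87 to 0.32, adjusted p 0.369, edgeR). The call for Egr1 was lost when any of 5 libraries was left out, which were KO eTreg replicate 3 (0.0523), WT eTreg replicates 1 (0.0645) and 2 (0.145), KO cTreg replicate 1 (0.0571) and WT cTreg replicate 2 (0.133), all edgeR adjusted p. It was also lost without a filter on low counts (0.0733) and with only the 6 libraries compared (0.055), and over 21 alternatives its adjusted p ran between 0.00762 and 0.145. In bulk RNA, fewer cells that express a gene and less RNA per cell cannot be told apart, here and in the comparisons that follow.

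Among KO cells Nr4a2, Nr4a3, Egr2 and Egr3 were again higher in the effector gate. Nr4a2 was 4.11-fold higher in KO eTreg than in KO cTreg, Nr4a3 2.29-fold, Egr2 2.27-fold and Egr3 1.29-fold. These 4 members rose and 0 fell, beside 36.1% of tested genes called higher, 35.8% lower and 72.0% in either direction, so the share called in either direction again lies near that of all genes, with all 4 calls in the higher direction. The libraries of 5 members did not overlap, against 74.6% of tested genes. On the log2 scale, KO eTreg over KO cTreg, the differences were 2.04 ± 0.26 for Nr4a2 (SE, n = 3 per group; adjusted p 3.01e-06, edgeR), 1.198 ± 0.20 for Nr4a3 (0.000437), 1.18 ± 0.10 for Egr2 (2.14e-07) and 0.36 ± 0.11 for Egr3 (0.00888). Nr4a1 stood at -0.53 ± 0.26 (95% interval -1.13 to 0.07, adjusted p 0.102, edgeR) and Egr1 at 0.12 ± 0.11 (0.325); the gate difference of Egr1 was not shown to differ between KO and WT cells (edgeR adjusted p 0.664 for the interaction). Without WT cTreg replicate 2, which is in neither group but adds to the shared spread, Nr4a1 was called lower at an edgeR adjusted p of 0.0323. It was also called lower with only the 6 libraries compared (0.0254) and by limma-voom (0.0344), and over 21 alternatives its adjusted p ran between 0.0254 and 0.256.

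**Figure D2:**
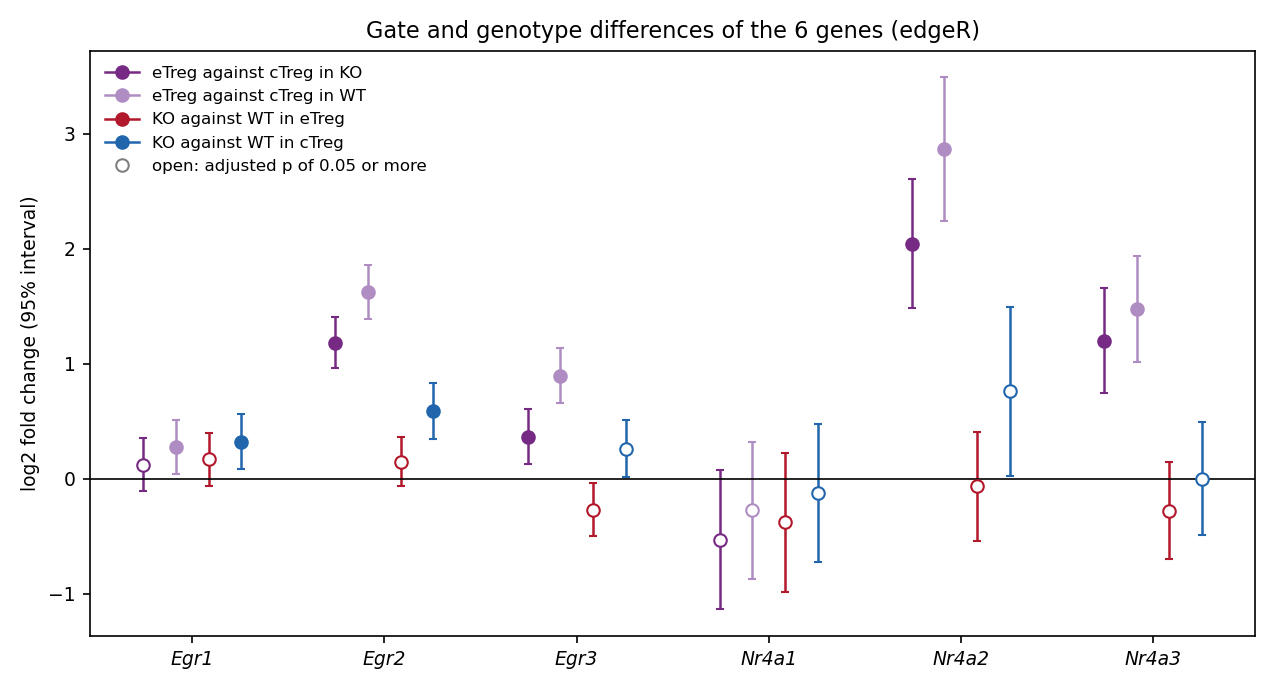
Log2 fold change of each member in 4 comparisons from edgeR's fit over the 12 libraries, with bars for the 95% interval and filled points for adjusted p under 0.05. Egr2 lies above 0 in both gate comparisons (1.18 in KO and 1.62 in WT cells) and in KO against WT cTreg (0.59), while the Nr4a1 estimates lie below 0 with intervals that span 0 in all 4.

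In central cells, loss of CD25 went with more Egr2 and, by a small margin, more Egr1. Egr2 averaged 48.1 ± 2.93 CPM in KO cTreg and 32.0 ± 6.40 CPM in WT cTreg (SD, n = 3 each), 1.503-fold higher. Egr1 averaged 127 ± 9.07 CPM in KO cTreg and 102 ± 14.6 CPM in WT cTreg, 1.248-fold higher. These 2 members rose and 0 fell, beside 14.8% of tested genes called higher, 12.6% lower and 27.5% in either direction, so the share called in either direction is close to that of all genes. The libraries of the same 2 members did not overlap, against 40.4% of tested genes. The log2 fold change, KO over WT cTreg, was 0.59 ± 0.11 for Egr2 (SE; 95% interval 0.35 to 0.83, adjusted p 0.00164, edgeR) and 0.32 ± 0.11 for Egr1 (95% interval 0.08 to 0.56, 0.0481). Egr2 passed in each of 21 alternatives, with adjusted p between 2.53e-06 and 0.00954. Egr1 was no longer called, leaving 1 member, when any of 6 libraries was left out, which were KO cTreg replicates 1 (edgeR adjusted p 0.112) and 3 (0.144), WT cTreg replicates 2 (0.121) and 3 (0.0576), KO eTreg replicate 3 (0.0661) and WT eTreg replicate 1 (0.0646), as also without a filter on low counts (0.0901), and its adjusted p ran between 0.0075 and 0.144 over the alternatives.

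No other member was called in central cells in the fit over all libraries. The unadjusted edgeR p was 0.0411 for Egr3 and 0.045 for Nr4a2, and the share of all genes at such values was not computed. Nr4a2 had 1.86 ± 0.398 CPM in KO cTreg and 1.11 ± 0.631 CPM in WT cTreg, a log2 fold change of 0.76 ± 0.35 with a 95% interval of 0.02 to 1.496 (adjusted p 0.123, edgeR). Egr3 stood at 0.26 ± 0.11 (interval 0.01 to 0.51, adjusted p 0.115, edgeR). Nr4a1 stood at -0.13 ± 0.26 (interval -0.73 to 0.47, 0.767) and Nr4a3 at -0.00065 ± 0.22 (interval -0.49 to 0.49, 0.999), so a change within these intervals was not detectable for Nr4a1 or Nr4a3. Nr4a2 was called higher without WT cTreg replicate 1 (edgeR adjusted p 0.0263) and Egr3 without KO cTreg replicate 2 (0.0142). Over 21 alternatives the adjusted p ran between 0.0263 and 0.417 for Nr4a2 and between 0.0142 and 0.331 for Egr3.

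In effector cells no member was called between KO and WT in the fit over all 12 libraries. The estimates were below 0 for Egr3, Nr4a1, Nr4a3 and Nr4a2 and above 0 for Egr1 and Egr2. By edgeR's test 0 of 6 members were called, beside 6.65% of tested genes in either direction, 3.25% higher and 3.40% lower; DESeq2 and limma-voom also called 0. The lowest unadjusted edgeR p was 0.0237, for Egr3. Egr3 averaged 64.2 ± 8.10 CPM in KO eTreg and 77.5 ± 5.28 CPM in WT eTreg (SD, n = 3 each), and it was the 1 member whose libraries did not overlap, against 25.2% of tested genes. Its log2 fold change was -0.27 ± 0.11 (95% interval -0.50 to -0.04, adjusted p 0.167, edgeR). Nr4a1 stood at -0.38 ± 0.26 (interval -0.98 to 0.22, adjusted p 0.499, edgeR) and Nr4a3 at -0.28 ± 0.19 (interval -0.70 to 0.14, 0.484). Egr1 stood at 0.17 ± 0.11 (0.446), Egr2 at 0.15 ± 0.10 (0.461) and Nr4a2 at -0.07 ± 0.22 (0.917), all by edgeR. KO eTreg replicate 2, which held the most Klrb1c, also had the highest level of its group for all 6 members, and without it edgeR again called 0 members. WT eTreg replicate 2 was likewise the highest of its group for every member but Nr4a2. Over all genes this comparison gave 405 higher and 424 lower calls, and 301 higher and 546 lower when libraries were scaled by total counts without Rn45s.

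Same-numbered KO and WT eTreg libraries deviated together, with correlations of 0.209 to 0.473 over tested genes, against -0.384 to 0.0835 for libraries of unlike number. The deviations are from each group's own mean of 3 libraries and sum to 0. Positive same-number values therefore pull the unlike-number values down, and the 2 ranges are not separate evidence. Blocked by replicate number within the 6 eTreg libraries, edgeR's fit called 4 of 6 members, 1 higher and 3 lower, beside 14.0% of 12208 genes in either direction, 7.54% higher and 6.48% lower. In that fit Nr4a1 fell, with a log2 fold change of -0.39 ± 0.06 (SE; edgeR adjusted p 0.000457), as did Nr4a3 (-0.29 ± 0.05, 0.00126) and Egr3 (-0.28 ± 0.05, 0.00175), while Egr1 rose (0.16 ± 0.05, 0.035). Egr2 (0.14 ± 0.05, 0.0589) and Nr4a2 (-0.07 ± 0.15, 0.837) were not called. The members' log2 differences within replicate numbers 1, 2 and 3, KO over WT eTreg, were -0.53, -0.37 and -0.24 for Nr4a1, -0.22, -0.27 and -0.34 for Nr4a3, -0.38, -0.20 and -0.25 for Egr3 and 0.08, 0.14 and 0.29 for Egr1. All 3 numbers had the same sign for each of these 4 members and for Egr2 (0.21, 0.07 and 0.17), which was not called. The blocked fit tests these same differences, so their signs are no separate support for its calls. The labels do not tie equal numbers to a shared litter, day or batch, so the pairing comes from these libraries themselves. With the block over all 12 libraries edgeR called 0 members, and over 21 alternatives the adjusted p ran between 0.000457 and 0.807 for Nr4a1, 0.00126 and 0.804 for Nr4a3, 0.00175 and 0.408 for Egr3, and 0.035 and 0.747 for Egr1.

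**Figure D3:**
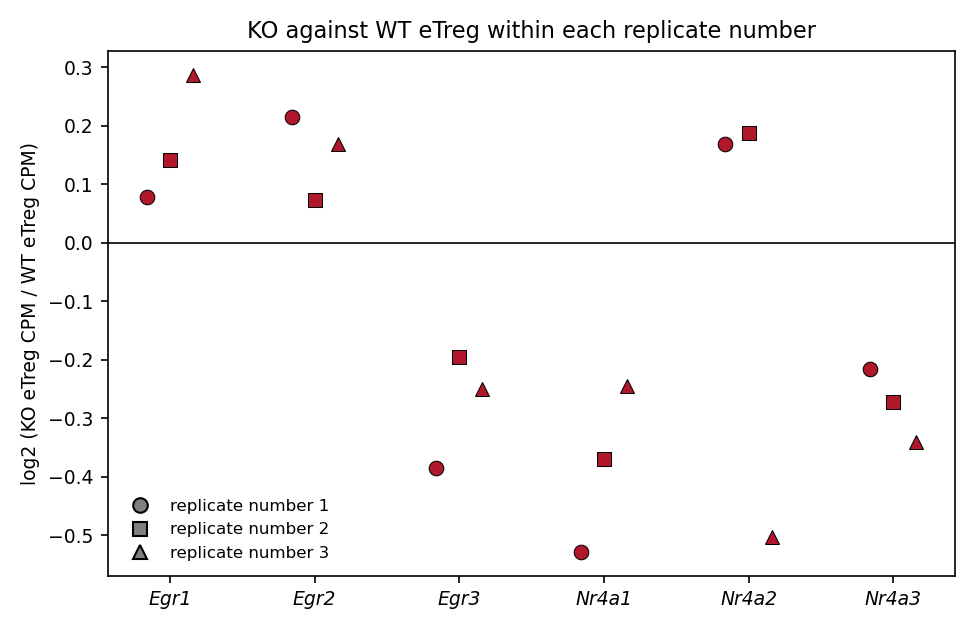
Log2 ratio of TMM-normalised CPM in KO eTreg over WT eTreg within each replicate number, with a point per number and a line at 0. Nr4a1 (-0.53, -0.37 and -0.24), Nr4a3 and Egr3 lie below 0 in all 3 numbers and Egr1 and Egr2 above 0, while Nr4a2 has both signs.

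The effect of CD25 loss was not shown to differ between the gates for any member. The difference of the KO effects, eTreg minus cTreg, was called for 0 of 6 members by edgeR and by limma-voom and for 1, Egr3, by DESeq2 (adjusted p 0.0211), beside 3.80% of tested genes in either direction, 0.803% higher and 3.00% lower. The lowest unadjusted edgeR p values were 0.00473 for Egr3 and 0.0113 for Egr2. The log2 difference was -0.53 ± 0.16 for Egr3 (SE; adjusted p 0.0855, edgeR), -0.44 ± 0.15 for Egr2 (0.141), -0.83 ± 0.41 for Nr4a2 (0.335), -0.28 ± 0.29 for Nr4a3 (0.682), -0.26 ± 0.37 for Nr4a1 (0.786) and -0.15 ± 0.15 for Egr1 (0.664). All 6 estimates were below 0. Leaving out 1 library gave a call for Egr3 without KO cTreg replicate 2 (edgeR adjusted p 0.0113) or KO eTreg replicate 2 (0.0203), and for Egr2 without WT cTreg replicate 3 (0.00419). Over 19 alternatives the adjusted p ran between 0.0113 and 0.191 for Egr3 and between 0.00419 and 0.274 for Egr2. The 6 comparisons draw on the same 4 groups, so their values are not independent.

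KO cTreg did not reach the level of WT eTreg in the members that part the gates. Egr2 was -1.03 ± 0.10 on the log2 scale, KO cTreg over WT eTreg (SE; adjusted p 9.35e-07, edgeR), Nr4a2 -2.11 ± 0.26 (2.24e-06), Nr4a3 -1.48 ± 0.20 (0.000103) and Egr3 -0.64 ± 0.11 (0.000149). These 4 members fell and 0 rose, beside 35.1% of tested genes called lower, 35.2% higher and 70.2% in either direction, and their libraries did not overlap, against 74.1% of tested genes. Egr1 differed by 0.05 ± 0.11 (95% interval -0.19 to 0.28, adjusted p 0.721, edgeR) and Nr4a1 by 0.15 ± 0.26 (interval -0.45 to 0.74, 0.63). In the order of group means for Egr2, Egr3, Nr4a2 and Nr4a3, the neighbours that differed in the fit over 12 libraries were the lower effector group and KO cTreg, and for Egr2 also KO cTreg and WT cTreg. For Egr1 the means ran KO eTreg, KO cTreg, WT eTreg and WT cTreg, and the one call between neighbours in this fit was the narrow one of WT eTreg against WT cTreg. For Nr4a1 the means ran from WT cTreg, the highest, through KO cTreg and WT eTreg down to KO eTreg, with no neighbours called different in the fit over 12 libraries. The blocked fit of the 6 eTreg libraries called KO eTreg lower than its neighbour WT eTreg for Nr4a1, Egr3 and Nr4a3, as given above. Relative to all genes, the median member log2 fold change was 0.29 in KO against WT cTreg, -0.17 in KO against WT eTreg, 0.77 between the gates in KO cells and 1.19 in WT cells, while the median over all tested genes was within 0.01 of 0 in each.

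Within groups, 5 of the members shared their high and low libraries in replicate 2. Averaged over the 5 members other than the scarce Nr4a2, replicate 2 stood 0.19 log2 units above its group mean in KO eTreg and 0.20 above it in WT eTreg. In the central gate the same mean stood at -0.21 in KO cTreg replicate 2 and -0.28 in WT cTreg replicate 2. Replicate 2 was thus high in both effector groups and low in both central groups. Among these 5 the deviation of replicate 2 was largest for Nr4a1 in KO eTreg (0.33), WT eTreg (0.32) and WT cTreg (-0.57), and for Nr4a3 in KO cTreg (-0.39). Fos, an early gene of the same receptor that is no member, stood at 11.5, 33.5 and 8.42 CPM in KO eTreg and 9.32, 24.7 and 5.54 CPM in WT eTreg. It stood at 49.6, 21.0 and 62.7 CPM in KO cTreg and 39.9, 23.0 and 49.4 CPM in WT cTreg. Fos therefore shared the pattern of replicate 2 in all 4 groups. So did the mean of 40 receptor-induced genes other than the members, at 0.10, 0.10, -0.14 and -0.12 for KO and WT eTreg and for KO and WT cTreg in turn. That mean includes Fos and Jun, so it is not separate from them. The mean of 9 heat shock genes, which rise when tissue is dissociated, shared it only in KO cTreg, at -0.13, -0.01, -0.43 and 0.44 in the same 4 groups. That mean includes the scarce Hspa1a, at 0 to 1.80 CPM per library, and Hspa1b, at 0.44 to 4.25 CPM. Whether dissociation also moved Fos or the members was not tested. The source of this shared movement and its part in the comparisons were not tested.

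**Figure D4:**
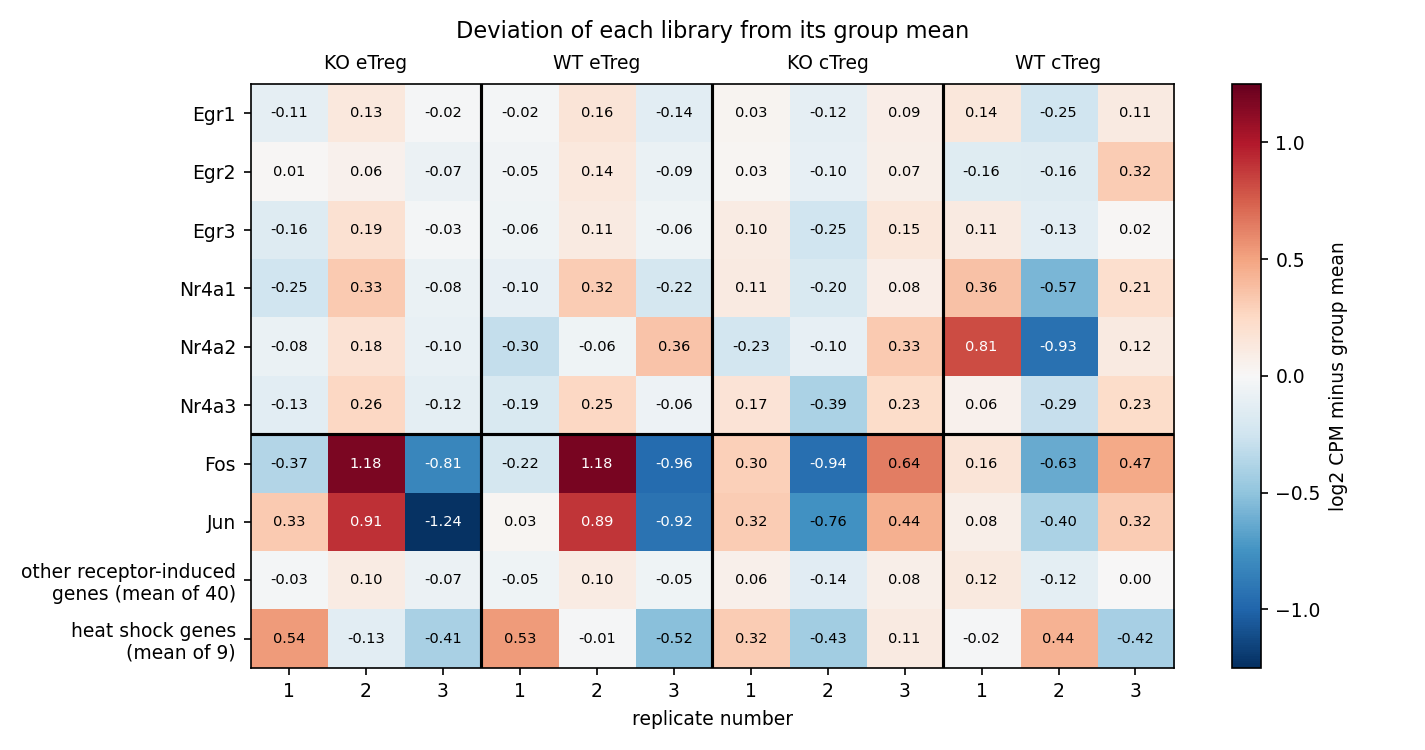
Deviation of each library from the mean of its own group in log2 CPM, for the 6 members and for Fos, Jun and the means of 40 other receptor-induced genes and 9 heat shock genes, on a colour scale. The 40 genes include Fos and Jun. Replicate 2 is high in both eTreg groups and low in both cTreg groups for most members, as for Nr4a1 at 0.33 in KO eTreg and -0.57 in WT cTreg.

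The partners of the members and the factors that drive them moved in both directions. Their counts, and those of the lists that follow, stand against 27.5% of all tested genes called in KO against WT cTreg, 6.65% in KO against WT eTreg, and 72.0% and 71.5% between the gates in KO and WT cells. Of 16 tested EGR partners and regulators, 4 rose and 2 fell in KO against WT cTreg and 1 rose and 0 fell in KO against WT eTreg. The gene that rose in both was Nab1, a corepressor of EGR proteins, by 0.46 ± 0.06 in cTreg and 0.48 ± 0.05 in eTreg (log2, SE; adjusted p 1.48e-05 and 7.52e-05, edgeR). Mef2d, an activator of Nr4a1 in T cells, fell in KO cTreg (-0.23 ± 0.06, adjusted p 0.00534, edgeR). Between the gates in WT cells 5 rose and 7 fell, with Crem, a cyclic AMP response factor, at 1.54 ± 0.13 and Srf, the factor of the CArG box, at -1.13 ± 0.06. In KO cells 7 rose and 8 fell, with Crem at 1.60 ± 0.12 and Srf at -1.30 ± 0.06. The median log2 fold change of this list was 0.08 and 0.02 for KO against WT in cTreg and eTreg, against 0.0014 and 0.0070 over all tested genes.

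Genes known to lie downstream also moved in both directions. Of 15 T cell genes known as EGR2 or EGR3 targets, 3 rose and 2 fell in KO against WT cTreg (median -0.02) and 1 rose and 1 fell in KO against WT eTreg (median 0.06). Lag3, an inhibitory receptor, rose by 2.09 ± 0.15 in KO cTreg and by 0.58 ± 0.12 in KO eTreg, and Socs1, an inhibitor of cytokine signalling, changed by -0.53 ± 0.11 and -0.53 ± 0.13 (log2, SE; edgeR adjusted p 7.7e-07, 0.0119, 0.00242 and 0.022). Between the gates 6 rose and 6 fell in KO cells and 6 rose and 6 fell in WT cells, with Rnf128, the ubiquitin ligase GRAIL, at 2.58 ± 0.30 and 3.19 ± 0.34. Socs1 fell there, at -1.80 ± 0.12 in KO cells and -1.81 ± 0.12 in WT cells. Of 14 T cell genes linked to NR4A factors, 7 rose and 4 fell in KO against WT cTreg (median 0.16) and 3 rose and 3 fell in KO against WT eTreg (median 0.04). Foxp3, which NR4A factors are known to support in mouse Tregs, fell by 0.79 in KO cTreg and by 0.48 in KO eTreg, and Tox2 rose by 2.48 ± 0.22 in KO cTreg. Between the gates 8 rose and 4 fell in KO cells and 8 rose and 5 fell in WT cells. Foxp3 was named outside the rule for cTreg after its value was seen.

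Other genes of antigen receptor signalling gave counts of their own. Of 40 other receptor-induced genes, 10 rose and 5 fell in KO against WT cTreg (median 0.02), with Gadd45b at 0.99 ± 0.14 and Myc, which interleukin-2 also induces, at -1.51 ± 0.15. In KO against WT eTreg 3 rose and 3 fell (median -0.01), with Tnfaip3, an inhibitor of NF-kappaB, at 0.59 ± 0.09 and Myc at -1.07 ± 0.15. Between the gates 19 rose and 13 fell in KO cells and 16 rose and 12 fell in WT cells, with Cd83 at 2.02 ± 0.08 and 2.59 ± 0.09. Among those that fell in KO and WT cells were Jun (-1.79 ± 0.59 and -1.99 ± 0.60) and Vps37b (-1.45 ± 0.09 and -1.80 ± 0.09). Of 28 genes of the signalling chain from the receptor to calcineurin and MAP kinase, 8 rose and 3 fell in KO against WT cTreg and 3 rose and 1 fell in KO against WT eTreg. Between the gates 10 rose and 16 fell in KO cells and 10 rose and 15 fell in WT cells, with the adaptor Lat at -1.16 ± 0.05 and -0.999 ± 0.05. Of 9 heat shock genes 0 rose and 1 fell in KO against WT cTreg and 0 rose and 0 fell in KO against WT eTreg, and between the gates 4 rose and 2 fell in KO cells and 2 rose and 2 fell in WT cells.

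The genes most like each member in pattern were sought among 8888 tested genes, by the root mean square difference of log2 CPM over the 12 libraries after each gene's own mean was removed. Nearest to Egr2 were Cep162 (0.162), Ap1s2 (0.163) and Srgn (0.164), and nearest to Egr3 were F2r (0.127), Hivep3 (0.130) and Cab39 (0.141). Nearest to Egr1, whose range was narrow, were Wdr26 (0.107), Bpgm (0.108) and Asap1 (0.110). Nr4a1 lay nearest to Bri3bp (0.200), Dhx35 (0.205) and Tldc1 (0.215), and Nr4a3 to AI987944 (0.228), Rbpj (0.229) and Ptpn4 (0.242). Nr4a2 lay farther from its neighbours Fgl2 (0.415), Cd83 (0.420) and Rgs16 (0.421), on counts as low as 7. Between members the distance was smallest for Egr1 and Egr3 (0.278) and for Egr2 and Nr4a3 (0.310) and largest for Nr4a1 and Nr4a2 (1.52), so that the closest members were not always of the same family.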

How the data were processed

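Whole-number read counts per gene symbol for 12 libraries were used as deposited by the authors. Per the labels, RNA was extracted with RNeasy and libraries were made with KAPA RNA HyperPrep and RiboErase, which removes ribosomal RNA. HISAT2 2.2.1, mm10 and Cell Ranger appear in the submitters' processing notes without their roles. How reads were counted, with which annotation and strand rule, is not given in the sources used here. The table holds 27 symbols that a spreadsheet turned into month-like names, which stayed in totals, and 2 duplicated symbols, which were kept apart.

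The analysis used edgeR 4.0.16 in R 4.3.3, with filterByExpr, TMM, robust dispersions and a two-sided quasi-likelihood F-test in 1 fit over 4 groups, with Benjamini-Hochberg adjustment over 12461 genes in each of 6 comparisons and a threshold of 0.05. The SE is the log2 fold change over the square root of F, and 95% intervals use the t distribution of the fit. Alternatives were DESeq2 1.42.0 (size factors or Wald test), limma-voom (limma 3.58.1), scaling without Rn45s, other filters, fewer libraries, the replicate block and leaving out each library. The members and lists were chosen with earlier results of these data known. Up to 2 called genes per direction of a list qualify for naming, those of largest fold change whose groups do not overlap, and some were left out for length. For each member, 3 genes of similar pattern are named. The summed level of the central markers is not reported here.

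Replicates are separate pools of mice, and chi-squared per degree of freedom between libraries of a group was 3.74 to 10.4, so none were duplicates. Same-numbered libraries correlated above 0.1 in all 3 numbers only for KO against WT eTreg. Tested on simulated data with 12461 genes, edgeR recovered, in KO against WT cTreg, 69 of 100 genes with a 1.5-fold change and 91 of 100 with a 2-fold change, with 5.33% of calls false. In KO against WT eTreg it recovered 66 and 94, with 6.43% false. Between the gates it recovered 75 and 85 in KO cells, with 8.05% false, and 66 and 80 in WT cells, with 7.59% false. Each comparison was a single draw with 200 changed genes, all above a floor on expected counts. These rates thus do not cover a gene as scarce as Nr4a2 in WT cTreg.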

Additional observations from a re-analysis of the deposited data

How the results depend on the processing

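Among the values of single members, similarity to other genes included, 707 kept direction and side of the threshold over the alternatives, 19 lost a call, 14 gained one and 10 turned in sign, none of them called. In KO against WT cTreg the count of members called, 2, was 1 without a filter on low counts and 1 under the replicate block over 12 libraries (Egr1 lost, edgeR adjusted p 0.0948), was 3 under the block in only the 6 cTreg libraries (Egr3 gained, 0.0439), and ran from 1 to 3 when 1 library was left out. In KO against WT eTreg the replicate block in the 6 libraries called 4 members and 1712 genes, against 0 and 829; leaving out 1 library gave 455 to 890 genes, lowest without WT eTreg replicate 2 (455), KO eTreg replicate 3 (462) or WT eTreg replicate 3 (497). Between the gates in KO cells, the replicate block in 6 libraries called 2 of the 4 members, without Egr3 and Nr4a3 (edgeR adjusted p 0.132 and 0.0551); in WT cells Egr1 was lost under the block over 12 (0.0741) and in 6 libraries (0.122). Outside KO against WT eTreg, same-numbered libraries did not correlate above 0.1 in all 3 numbers. For the difference of the KO effects DESeq2 called 1 member, and leaving out 1 library gave 0 to 1 members and 314 to 570 genes, against 474, lowest without KO cTreg replicate 2.

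Signs turned only where the change was not called. The log2 fold change in KO against WT cTreg ran over the libraries left out from -0.13 to 0.17 for Nr4a3 and from -0.36 to 0.058 for Nr4a1 (above 0 without WT cTreg replicate 1), and Nr4a3 stood at 0.0021 with DESeq2 and 0.0037 without a filter. Nr4a2 in KO against WT eTreg ran from -0.20 to 0.13 (above 0 without WT eTreg replicate 3). Egr1 in KO cTreg against WT eTreg ran from -0.019 to 0.13 and stood at -0.031 without Rn45s in the library size. Where an alternative tests fewer genes or libraries, its construction changes the result; the cause was not tested otherwise. Depth limits Nr4a2, with 7 to 179 counts per library.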

Other observations

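Egr4, the fourth EGR gene, did not pass the filter on low counts, and was singled out after its values were seen. It had 4, 1 and 6 counts in KO eTreg replicates 1, 2 and 3, against 1, 1 and 2 in WT eTreg, and 6, 8 and 9 counts in KO cTreg, against 0 in all 3 WT cTreg libraries. With a floor of 3 counts over the group for WT cTreg, Egr4 was 6.70-fold higher in KO cTreg. That value rests on 23 counts in KO cTreg and carries no interval. Without the filter, edgeR gave it an adjusted p of 0.00124 for KO against WT cTreg and 0.513 for KO against WT eTreg.

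The ratio of Egr2 to Nr4a1, both per kilobase of exon, was also chosen after the values were seen and is given with no test. It stood at 2.85, 1.96 and 2.39 in KO eTreg replicates 1, 2 and 3 and at 1.71, 1.45 and 1.80 in WT eTreg. It stood at 0.676, 0.765 and 0.710 in KO cTreg and at 0.311, 0.592 and 0.481 in WT cTreg. The 4 groups did not overlap in this ratio. Of 7 ratios between members that were computed, this was the 1 in which all 4 groups lay apart.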
